A study of Caenorhabditis elegans with 6 samples.

Results

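The windows described here are those counted for piRNA precursors in one megabase of the large piRNA cluster of Caenorhabditis elegans, between 15 and 16 Mb of chromosome IV. All windows of the count table that start within these limits were taken, on both strands, which gave 3625 of the 15703 windows in the table. Those with at least 10 counts summed over both conditions, 304 windows, were used for ratios. Small RNA was sequenced from isolated germ nuclei of strain YL701. All worms of that strain, controls included, carry ISW-1::eGFP::AID on chromosome III, so that ISW-1, the ATPase of ISWI chromatin remodellers, bears a degron. They also carry the transgene wrdSi51 on chromosome II, which expresses TIR1, with F2A, mTagBFP2, AID* and an NLS, under the germline promoter mex-5p and a tbb-2 3'UTR. Worms had been synchronized at the first larval stage and grown for 45 h at 22 °C, then kept for 3 h on plates with ethanol (ETOH, the control) or with 1 mM auxin (the knockdown), with 3 libraries per condition. The table held 1 pooled column for each condition, so no difference had a replicate check and no p-value could be given. All intervals are 95% intervals for counting error only, and they are too narrow if PCR copies were counted as separate reads. Since the table held piRNA windows alone, neither the depletion of ISW-1 nor markers of the germ line could be read from it.

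Worm piRNAs, or 21U-RNAs, guide the Argonaute PRG-1 in the germ line, where they silence foreign and some endogenous transcripts. Each is cut from its own short capped RNA, which RNA polymerase II makes from a separate small promoter recognised by the upstream sequence transcription complex (PRDE-1, SNPC-4, TOFU-4 and TOFU-5). The study asked what ISW-1 contributes to the making of these precursors. RNA was treated with phosphatase and then with a decapping enzyme, an order that favours capped RNA over mature piRNAs.

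The 3625 windows of the stretch held 56567 counts in the ETOH column and 44328 in the auxin column. The auxin column was thus lower, with a raw ratio of 0.784 (0.774 to 0.793) and a deficit of 12239 counts. The whole table, with 461069 and 351565 counts, had a ratio of 0.763, and the neighbouring megabases had 0.901 (14 to 15 Mb) and 0.837 (16 to 17 Mb). This order rested on single windows. Without the most abundant window of each megabase, a comparison added after seeing the data, the ratio was 0.752 (0.741 to 0.763) in the stretch, 0.726 (0.716 to 0.736) in 14 to 15 Mb without 21ur-4459, and 0.763 (0.753 to 0.774) in 16 to 17 Mb without 21ur-4930. Depth outside piRNA windows was unknown, so a change common to all windows could not be told apart from a difference in depth. The stretch held 12.3% of all ETOH counts (12.2 to 12.4) and 12.6% of all auxin counts (12.5 to 12.7). Without the 10 most abundant windows of the table, 2 of which lay in the stretch, its share was 21.8% in ETOH and differed in auxin by −0.816 percentage points, so the direction of this small difference turned with those windows.

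A count in either column was present in 904 windows of the stretch (24.9%, against 25.7% of all windows of the table). Of the 2721 without one, 1669 overlapped another window. By their coordinates, 1732 of the 3625 windows (47.8%) overlapped another on the same strand, against 40.3% in the whole table. Of the overlapping windows 3.64% (2.81 to 4.63) had a count in either column, and of the 1893 others 44.4% did (42.2 to 46.7). Reads had been reduced to their 5′ base, and a base that lay in more than 1 window was assigned to none. Among overlapping windows of the plus strand, 4 of 503 had a count when their first base was shared, 15 of 363 when 1 to 3 bases at the 5′ end were free, and 15 of 29 when exactly 4 were free. On the minus strand, 2 of 448, 18 of 324 and 1 of 35 had a count in the same classes, and 6 of 15 with 5 or more free bases. With exactly 4 free bases the share was thus higher on the plus strand than on the minus strand, and in the whole table it was 40.8% and 7.83%. With 5 or more free bases, 2 of 15 plus-strand windows of the stretch had a count (13.3%, 1.66 to 40.5), while the shares over the whole table were 27.3% on the plus strand and 40.0% on the minus strand. For windows whose first 5′ bases were shared, a missing count therefore says little of the precursor.

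**Figure D1:**
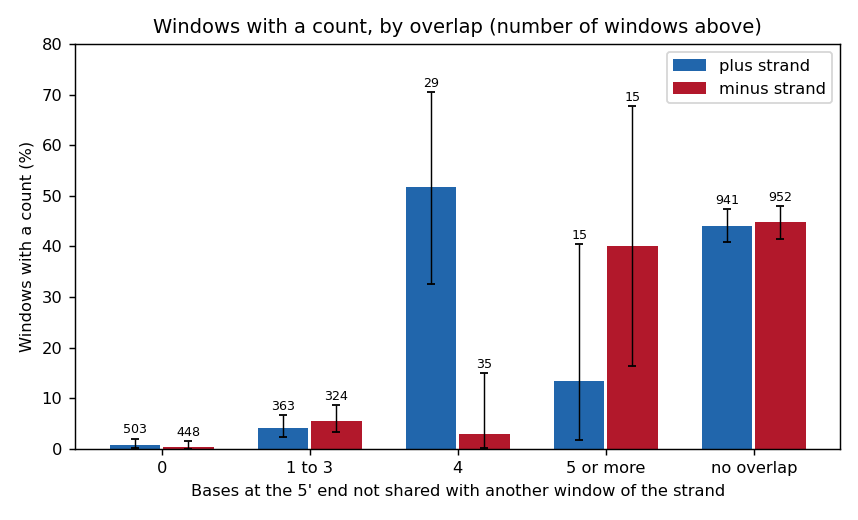
Share of windows of the stretch with at least 1 count in either column (y axis, percent), by the number of bases at the window's 5′ end that no other window of the strand shares (x axis); bars are shares, error bars 95% Clopper-Pearson intervals, and numbers above count the windows. Windows without overlap stand at 44.1% on the plus strand and 44.7% on the minus strand, and overlapping windows with 0 free bases at 0.795% and 0.446%.

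Most windows could also be placed by name. For 3498 windows, a piRNA of the same name was annotated on the same strand of WBcel235, and each of these windows started 33 bases to the left of it, on the plus strand (1793 windows) as on the minus strand (1705). The displacement had the same direction in genome coordinates on both strands, and if windows and annotation shared 1 frame it would leave these windows outside the annotated piRNAs. The submitters' processing notes name ce11, the same build as WBcel235, and which frame the reads were placed in was not tested. The positions printed here are those of the annotated mature piRNA on WBcel235, matched by name. The other 127 windows had no such match, and 8 of them had a count. Of the non-overlapping windows, 8.42% of those without a match had a count, against 46.3% of those with one.

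A count was seen in 756 windows of the stretch in ETOH (20.9%, against 20.7% of all windows of the table) and in 681 in auxin (18.8%, against 19.5%). Both columns held a count in 533 windows, ETOH alone in 223 and auxin alone in 148, while 2721 had none. With the ETOH column reduced to the total of the auxin column, 713 windows would be expected to hold a count, against 681 in auxin. The same calculation over the whole table gave 3059 against 3057. For 3 or more counts it gave 432 windows of the stretch, against 386 in auxin. The whole table gave 1835 against 1719 at that threshold, so fewer windows than expected held 3 or more counts in auxin there too. Non-overlapping windows of the neighbouring megabases also fell short at 1 count, with 711 expected against 686 in 14 to 15 Mb and 557 against 541 in 16 to 17 Mb, beside 675 against 644 in the stretch. The table's total includes 21ur-2844, a window outside the stretch with 109547 ETOH and 45311 auxin counts. When the stretch alone was brought to its own auxin total, 718 windows were expected. Both totals were made up mostly of windows with 1000 or more counts. In the stretch those windows had a summed ratio of 0.855, and the windows under 1000 counts one of 0.601. Neither expectation makes allowance for this difference, and detection at the lower ratio was not tested.

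A few precursors supplied most of the counts. The most abundant window, 21ur-6064, held 22.2% of the ETOH counts of the stretch and 25.4% of its auxin counts. The first 2 windows held 35.4% and 40.6%, and the first 10 held 64.9% and 70.5%. Their share of the deficit was smaller, at 44.6% for the first 10. Outside these 10 windows the stretch had 19869 ETOH and 13091 auxin counts, a ratio of 0.659 (0.644 to 0.674).

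The window of 21ur-6064 (IV:15280558-15280578, minus strand) held 12566 ETOH counts and 11247 auxin counts, which makes a raw ratio of 0.895 (0.872 to 0.918). The window of 21ur-4429 (IV:15136240-15136260, minus strand) held 7474 and 6769, with 0.906 as the ratio (0.876 to 0.936). Both lay outside protein-coding genes, and both were lower in auxin in raw counts, though higher after TMM scaling (scaled log2 ratios of 0.49 and 0.51). The next in abundance, 21ur-3970 (IV:15496142-15496162, plus strand), held 4136 and 3206, with 0.775 as the ratio (0.740 to 0.812). The window of 21ur-2147 (IV:15882898-15882918, plus strand) had 3441 and 2287 counts, and its ratio of 0.665 (0.630 to 0.701) was the lowest of the 10. Near it stood 21ur-2127 (IV:15824925-15824945), with 1483 and 1007 counts and a ratio of 0.679 (0.626 to 0.736). It lies in an intron of daf-38 and on the same strand as that gene, which encodes a G protein-coupled receptor for pheromone ascarosides. The other 5 abundant windows had higher ratios than these 3.

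The window of 21ur-4985 (IV:15918894-15918914), over a pseudogene, had 1766 and 1576 counts, and that of 21ur-4225 (IV:15570095-15570115) had 1555 and 1322. The window of 21ur-705 (IV:15238790-15238810) had 1507 and 1247 counts and lies in an intron of lgc-52, on the same strand, a gene of the ligand-gated ion channel family. The window of 21ur-2118 (IV:15797020-15797040) had 1395 and 1154 counts. These 4 had ratios from 0.827 to 0.892, each with an interval below 1. Of the 10, only 21ur-4698 (IV:15319383-15319403, minus strand) had more counts in auxin, 1375 and 1422, with an interval of the ratio that covered 1 (0.960 to 1.11). After TMM scaling all 10 had log2 ratios above 0 (0.06 to 0.70), but with column totals alone 21ur-2147 and 21ur-2127 were at −0.20 and −0.17.

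Below this level the ratio of auxin to ETOH counts was lower. The 14 windows with 1000 or more counts had a summed ratio of 0.855 (0.843 to 0.867), and 11 of them had an interval below 1. Of the 71 windows this abundant in the whole table, 48 had such an interval. The 290 windows with 10 to under 1000 counts summed to 14677 ETOH and 8783 auxin counts, in the ratio 0.598 (0.583 to 0.614). Within them the ratio was 0.627 (0.607 to 0.647) for 100 to under 1000 counts, 0.557 (0.516 to 0.601) for 50 to 99, 0.529 (0.493 to 0.568) for 20 to 49 and 0.549 (0.488 to 0.617) for 10 to 19. The order of the 3 lowest classes is within counting error. The same comparison in the rest of the table gave 0.628 (0.619 to 0.637) for 10 to under 1000 counts. For 1000 or more counts the rest of the table had 0.779. That value rested on a pair of very abundant windows: it was 0.947 without 21ur-2844, 0.708 without 21ur-4459 (84352 ETOH and 84612 auxin counts) and 0.916 without both. Whether the abundant windows of the stretch stood above or below those elsewhere thus turned with windows outside it, which were picked out after their values were seen.

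**Figure D2:**
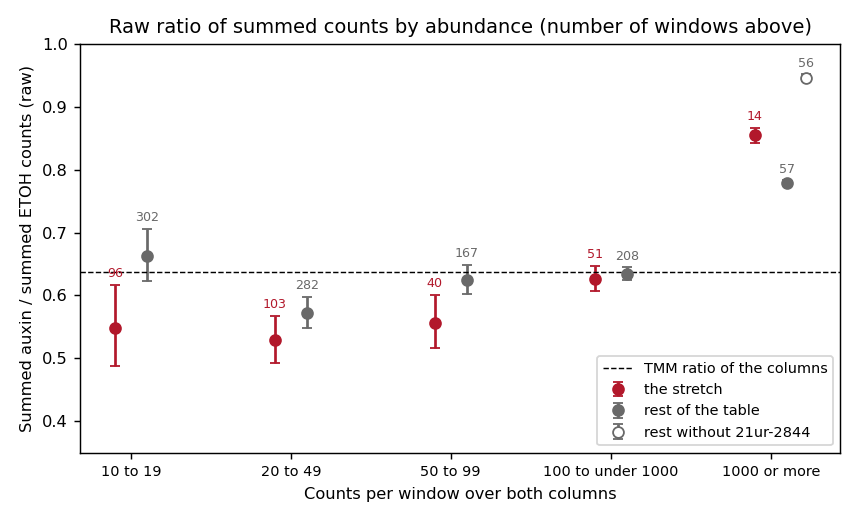
Ratio of summed auxin to summed ETOH counts (y axis, raw counts, not starting at 0) by counts per window (x axis), for the stretch (red) and the rest of the table (grey; open circle without 21ur-2844); error bars are 95% counting intervals, numbers count the windows and the dashed line is the TMM ratio of 0.637. In the stretch the ratio is 0.529 at 20 to 49 counts and 0.855 at 1000 or more.

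Counted window by window, most of the stretch was lower in auxin. Of the 304 windows, 258 had fewer raw counts in auxin (84.9%, against 78.5% of the 1320 such windows of the table), 40 had more and 6 had equal counts. Their raw log2 ratios had a median of −0.80, with quartiles at −1.43 and −0.27, against medians of −0.66 in the whole table, −0.74 in 14 to 15 Mb and −0.74 in 16 to 17 Mb. By raw counts alone, 133 windows lay 2-fold or more lower (43.8%, background 38.9%) and 6 lay 2-fold or more higher (1.97%, background 4.02%). For 126 windows the whole interval of the raw ratio was below 1 (41.4%, background 40.7%) and for 3 it was above 1, namely 21ur-11737, 21ur-2374 and 21ur-2874 (background 2.42%). Among the 65 windows with 100 or more counts, 58 had fewer counts in auxin (background 85.8%) and 19 were at least 2-fold lower (background 27.6%). With 1 pooled column per condition, none of these distances from the background could be tested.

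**Figure D3:**
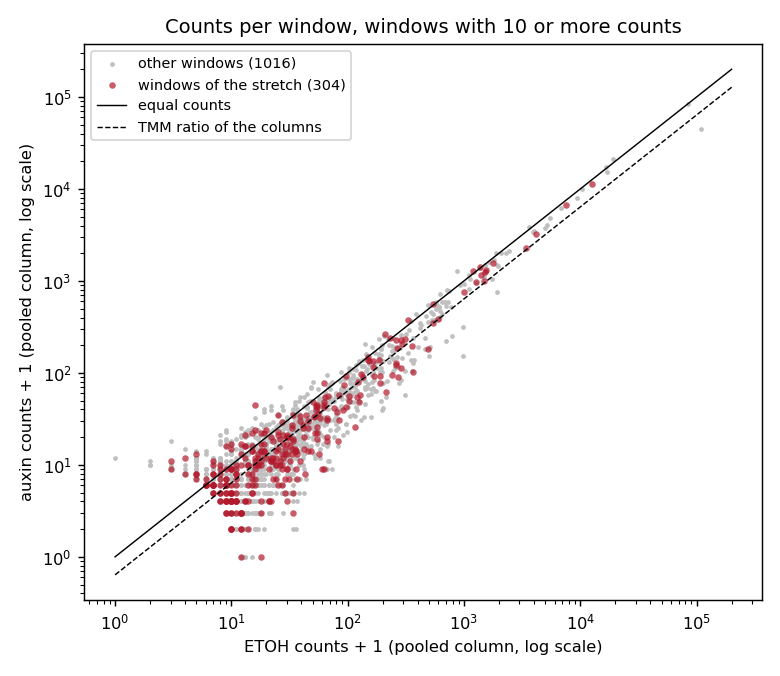
Counts of single windows in the pooled ETOH column (x axis) and the pooled auxin column (y axis), both plus 1 on log scales, for the 304 windows of the stretch (red) and the 1016 others with 10 or more counts (grey); the solid line marks equal counts and the dashed line the TMM ratio of 0.637. Red points lie mostly below the solid line, and the most abundant ones mostly between the lines.

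Relative changes were read after TMM scaling, which matches the columns on the bulk of all 1320 windows. The column ratio it found, auxin to ETOH, was 0.637, or −0.65 in log2 units. After scaling, with a prior count of 2, 50 windows of the stretch were at least 2-fold lower (16.4%, background 14.8%) and 17 at least 2-fold higher (5.59%, background 8.41%). Lower windows thus made up 74.6% of these calls. They made up 95.9% without scaling (117 lower, 5 higher), 88.7% with column totals alone (63 and 8) and 58.4% when every window with a count entered (128 and 91). Over the whole table, lower and higher calls numbered 196 and 111 after scaling and 443 and 37 without it. They numbered 258 and 70 with column totals alone, and 533 and 508 when every window with a count entered. Lower calls thus outnumbered higher ones there too. The median scaled log2 ratio was −0.12 in the stretch, −0.08 in 14 to 15 Mb, −0.08 in 16 to 17 Mb and 0.03 in all windows outside the stretch. The interval of the scaled ratio lay wholly below 1 in 50 windows (background 15.6%) and wholly above 1 in 34 (background 15.9%). Of the 50 lower windows, 47 had fewer than 100 counts, and the others were 21ur-130, 21ur-6313 and 21ur-1412, the last an overlapping window with 212 ETOH and 61 auxin counts.

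The windows lowest in auxin were ranked by the interval of their ratio, which makes no allowance for that choice. The best measured were 21ur-130 (IV:15111259-15111279, plus strand, outside protein-coding genes), with 364 counts in ETOH and 100 in auxin, and 21ur-6313 (IV:15844172-15844192, plus strand, outside protein-coding genes), with 115 and 25. Their raw ratios were 0.275 (0.218 to 0.344) and 0.217 (0.135 to 0.337), and their scaled ratios 0.431 and 0.341. The window of 21ur-13614 (IV:15683006-15683026) had 61 and 8 counts. That of 21ur-2516 (IV:15691022-15691042), in an intron of Y105C5A.15 on the same strand, had 59 and 8. Both lie on the plus strand, and their raw ratios of 0.131 (0.0542 to 0.275) and 0.136 (0.0559 to 0.285) could not be distinguished at these counts.

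The remaining lower windows had few counts. The window of 21ur-5760 (IV:15095834-15095854), within a srt-49 intron but on the opposite strand to that serpentine receptor gene, had 33 and 4. The window of 21ur-10357 (IV:15209285-15209305) had 33 and 2 counts, and that of 21ur-5334 (IV:15389736-15389756) had 29 and 3. The window of 21ur-6478 had 17 and 0 counts. Besides it, 1 other tested window, 21ur-1998, had no count in auxin, with 11 in ETOH, and no tested window lacked counts in ETOH.

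Of the windows highest in auxin, 3 had an interval of the raw ratio above 1. The window of 21ur-11737 (IV:15650061-15650081, plus strand, over a pseudogene) held 209 ETOH and 266 auxin counts. Its raw ratio was 1.27 (1.06 to 1.53), and scaling took this to 2.00 (1.66 to 2.41). The window of 21ur-2374 (IV:15164703-15164723) held 15 and 44, or 2.93 as a raw ratio (1.60 to 5.67), within an intron of Y40H7A.2 and opposite in strand to it. The window of 21ur-2874 (IV:15140446-15140466) had 2 and 10 counts, with an interval from 1.07 to 46.9. It lies over coding sequence of the serpentine receptor gene srg-51 on the same strand, so reads of that gene's own RNA could not be told apart from a precursor.

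The other named windows were at least 1.62-fold higher after scaling, while their raw counts were close to equal or few. In raw counts, 21ur-4679 (IV:15270493-15270513), over coding sequence of ccg-1 on the same strand, had 1187 and 1270. The window of 21ur-2132 (IV:15392573-15392593) had 330 and 374 counts, that of 21ur-3324 (IV:15550605-15550625) 543 and 560, and that of 21ur-7469 (IV:15625054-15625074) 3 and 11. All of these, like 21ur-4698, had intervals of the raw ratio that covered 1. Their scaled ratios, without a prior count, ran up to 5.75 for 21ur-7469. With the prior count, the scaled log2 ratio of that window was 1.86.

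**Figure D4:**
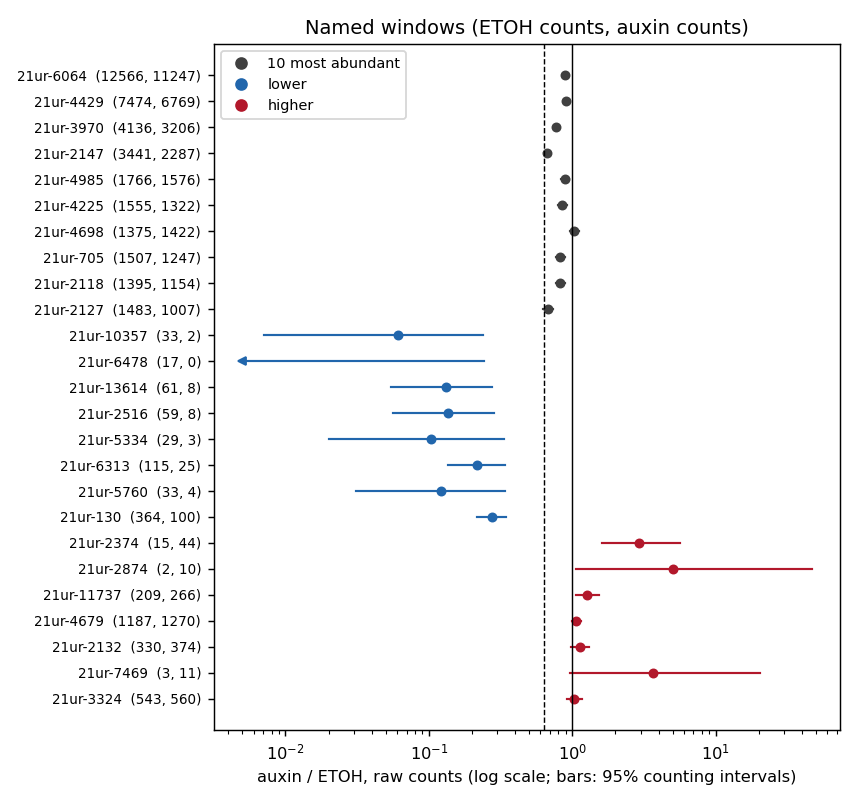
Raw ratio of auxin to ETOH counts (x axis, log scale) for the named windows, with both counts beside each name; points are ratios, bars 95% counting intervals, the solid line is equality and the dashed line the TMM ratio of 0.637. The 10 most abundant windows (grey) stand from 0.665 to 1.03; the arrow marks 21ur-6478, which had 0 counts in auxin, and 21ur-4698, also among the higher windows, is drawn once.

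Windows were similar in number on both strands, 1851 on the plus strand and 1774 on the minus strand. A count in either column was present in 451 and 453 of them. The plus strand held 21467 ETOH and 14987 auxin counts, in the ratio 0.698 (0.684 to 0.713), and the minus strand 35100 and 29341, in the ratio 0.836 (0.823 to 0.849). This difference rested on the abundant windows, since 21ur-6064 and 21ur-4429 both lie on the minus strand. Among windows under 1000 counts the ratios were 0.598 (0.576 to 0.620) and 0.604 (0.583 to 0.626), within counting error of each other. The median raw log2 ratio of single windows was −0.68 on the plus strand (153 windows) and −0.88 on the minus strand (151 windows), the opposite order to the totals.

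Along the stretch, windows were sparsest in the first 100 kb, with 193, and densest from 15.8 to 15.9 Mb, with 447. Of non-overlapping windows, 35.2% to 46.8% had a count in each of the 10 bins of 100 kb. The median raw log2 ratio was below 0 in every bin and ran from −1.24 in 15.1 to 15.2 Mb to −0.54 in 15.5 to 15.6 Mb, over 17 to 40 windows a bin. In the bin from 15.1 to 15.2 Mb, 23 of 36 windows (63.9%) were at least 2-fold lower in raw counts, against 43.8% in the stretch (background 38.9%). The total of the bin hardly showed it, because 21ur-4429 held most of its counts. After scaling, 7 of the 36 were at least 2-fold lower (19.4%, against 16.4% in the stretch, background 14.8%) and 4 were higher. In 15.3 to 15.4 Mb, 27.5% were lower after scaling. With windows under 1000 counts alone, the bin from 15.1 to 15.2 Mb had 1743 ETOH and 761 auxin counts, a ratio of 0.437 (0.400 to 0.476). The other bins then had ratios from 0.570 to 0.732. Without 21ur-130 and 21ur-2286, the most abundant of those windows, its ratio was 0.478 (0.432 to 0.529). That interval overlapped the one of 15.7 to 15.8 Mb, which kept all its windows under 1000 counts (0.570, 0.521 to 0.623). It also covered the 0.513 of 15.3 to 15.4 Mb without its most abundant such window. The bin from 15.1 to 15.2 Mb was singled out after its values were seen.

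**Figure D5:**
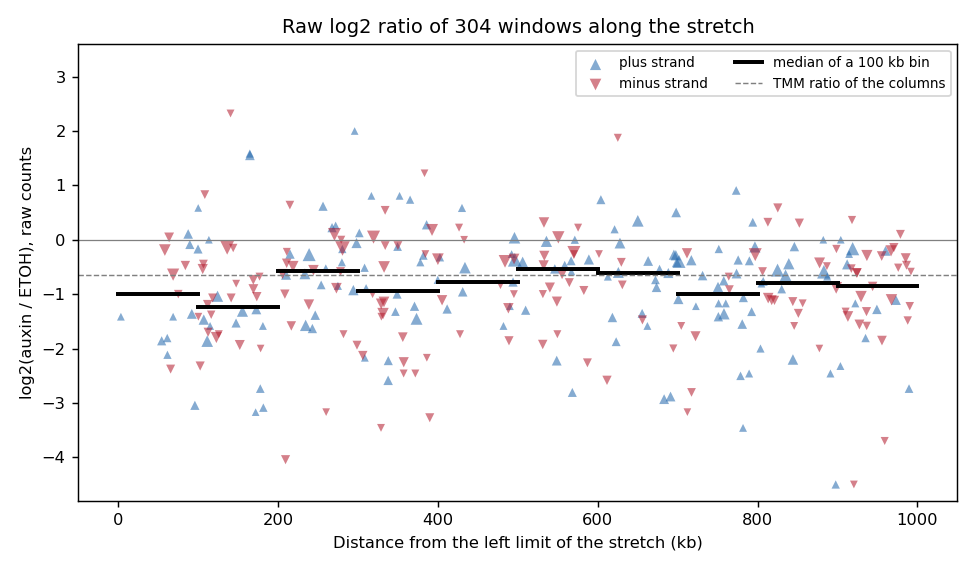
Raw log2 ratio of auxin to ETOH counts (y axis) of the 304 windows with 10 or more counts against the distance from the left limit of the stretch (x axis, kb); triangles are single windows by strand, larger with more counts, and black bars are medians of 100 kb bins. Bin medians run from −1.24 to −0.54; the 2 windows without auxin counts are drawn near the lower edge.

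Ratios of adjacent windows were compared as a description. Over 296 pairs of neighbouring non-overlapping windows with 10 or more counts, the scaled log2 ratios had a Pearson correlation of 0.04, and over the 92 pairs within 1000 bases one of 0.24. Over the 33 pairs in which both windows had 50 or more counts it was 0.19, with a Spearman correlation of 0.32. Neighbours come from the same 2 columns, and no test was made. Across the 304 windows, counts in the columns had a Spearman correlation of 0.81, so windows largely kept their rank.

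Gene context was taken for the 3498 windows matched to the annotation, of which 997 lay inside a protein-coding gene and 2501 outside. The stretch holds 65 such host genes, among them receptor and channel genes. Non-overlapping windows had a count in 41.6% of cases inside genes and in 48.2% outside. Among windows with 10 or more counts, the median raw log2 ratio was −0.64 inside (81 windows) and −0.86 outside (221 windows). Other measures had the opposite order: the summed raw ratio was 0.737 (0.714 to 0.760) inside and 0.793 (0.782 to 0.804) outside, and 18.5% of windows inside and 15.8% outside were at least 2-fold lower after scaling. Inside genes the median raw log2 ratio was −0.61 for the 46 windows on the host's strand and −1.0 for the 35 on the opposite strand. In summed counts under 1000 a window, these sets had ratios of 0.635 (0.595 to 0.678) and 0.584 (0.538 to 0.635), with intervals that overlap. Outside genes the ratio at that limit was 0.594 (0.577 to 0.612), which lies between them. The gap in summed ratio between 0.737 inside and 0.793 outside thus rested on the windows of 1000 or more counts. On the host's strand, reads of the host transcript could not be told apart from the precursor.

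The gene with the most counted windows was Y105C5A.15 (IV:15689201-15722553, plus strand), with 119 windows, 39 with a count and 14 with 10 or more. Its most abundant window was 21ur-4510, in an intron on the same strand (IV:15701663-15701683), with 1273 ETOH and 965 auxin counts. Its 8 windows on the gene's strand had raw log2 ratios from −2.88 to 0.50 (median −0.39), and 7 had fewer counts in auxin. Its 6 windows on the opposite strand ran from −3.17 to −0.25 (median −1.89), and all 6 had fewer. Among all windows with 10 or more counts, 84.9% in the stretch and 78.5% in the whole table had fewer. In the other host genes the medians were −0.64 (38 windows) and −0.68 (29 windows), so the gap between strands was wide in this gene and slight in the rest, at counts of 10 to 116 a window on its opposite strand. With 1 pooled column per condition this gap was not tested. Other host genes had few counted windows. The window of 21ur-1009, in an intron of pkd-2 on the opposite strand, which encodes a polycystin channel of male sensory neurons, had 268 and 90 counts, but it overlaps a small nucleolar RNA gene. The window of 21ur-8900, in an intron of acr-24, a gene of the nicotinic acetylcholine receptor family, had 310 and 232. In gcy-25, a receptor-type guanylyl cyclase gene, 10 of 37 windows had a count, with 28 counts in ETOH and 15 in auxin over all of them.

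At the limits of the stretch, the first window inside, 21ur-4572 (IV:15000635-15000655), held 7 ETOH and 0 auxin counts. The last inside, 21ur-4490, and the nearest windows outside, 21ur-8060 and 21ur-3608, had none in either column. At the limit of 10 counts, 16 windows had exactly 10 (9 with fewer counts in auxin and 3 with more), and 18 had 9 (14 with fewer and 4 with more). The 3321 windows under 10 counts summed to 1183 ETOH and 749 auxin counts, in the ratio 0.633 (0.577 to 0.694).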

How the data were processed

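Small RNA of 3 ETOH and 3 auxin libraries was analysed. The deposited values are raw counts per piRNA precursor window. The authors made them with featureCounts 2.0.3, per the file headers, on 1 pooled alignment a condition. Counting was stranded, kept multi-mapping reads and reduced each read to its 5′ base. Per the labels' protocols, both a miRNA kit and an mRNA kit are named. Neither the aligner nor unique molecular identifiers are named in the sources used here.

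Windows were matched by name, strand and a distance of at most 200 bases to piRNAs of Ensembl release 115 (WBcel235), with Python 3.11.15. Log2 ratios came from edgeR 4.0.16 (TMM, prior count 2) in R 4.3.3, on all windows with 10 or more counts, and the script was tested on simulated data; with 1 pooled column a condition, no quasi-likelihood test could be run. Ratios have conditional binomial intervals and shares Clopper-Pearson intervals (95%). Expected detection is hypergeometric. Named windows were the 10 most abundant, the 8 lowest and the 8 highest by the nearer bound of the interval, and those at the limits. Members, lists and rules were chosen with earlier results of these data known. The planned motif search was not run, since no genome sequence was used here.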

Additional observations from a re-analysis of the deposited data

How the results depend on the processing

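No paired analysis was possible because each condition came as 1 pooled column, and for the same reason no library could be left out. The motif alternatives were not run. The raw ratio of the stretch (0.784) became 0.752 without its most abundant window and 0.708 without the 5 most abundant. The share of the stretch was higher in auxin by 0.340 percentage points, by 1.59 without the most abundant window of the table, and changed by −0.816 without the 10 most abundant. The 50 lower and 17 higher windows became 117 and 5 without scaling, 31 and 9 at 20 or more counts, 4 and 0 at 100 or more (fewer windows entered each), 128 and 91 with no filter, 17 and 5 at 3-fold, and 8 higher with column totals. TMM scaling was refitted for each count filter, so the common shift moved too. The column ratio of 0.637 became 0.655 at 20 or more counts, 0.732 at 100 or more and 0.683 with no filter. At 100 or more counts, 4 of 65 windows were lower (6.15%), a smaller share than the 36 of 330 in the whole table. With the main scaling, 3 of these 65 were lower. At 3-fold, 17 of 304 (5.59%) was nearly the same share as 73 of 1320 in the whole table. In the other settings named here, the lower share was above that of the whole table, which was not tested. The median scaled log2 ratio of −0.12 became −0.34 with column totals and −0.69 without scaling, by the common shift. Its difference from that of the other windows, −0.14, ran from −0.17 to −0.03 over the settings run. Windows with a count, 756 and 681, became 489 and 386 at 3 or more counts. Located windows away from other small RNA genes, a set chosen after seeing the data, gave 50 and 17. Depth limits ratios of windows with few counts.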
